A study of Mus musculus with 9 samples.

Results

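The 7 cystatin genes described here, Cst3, Cst6, Cst8, Cst11, Cst12, Cst13 and Cstdc2, were picked by name from the 32195 genes of a single-cell RNA-seq table of the mouse epididymis. The epididymis is the coiled duct in which sperm leaving the testis mature and are stored, and it was cut into its 3 segments, the caput next to the testis, the corpus and the cauda. All mice were wild-type C57Bl/6J males that received no treatment. The 9 libraries were the 3 segments of each of 3 pools of mice, 1 pool aged 42 days (P42) and 2 pools aged 56 days (P56 replicates 1 and 2), with 5 mice in a pool. The segments of a pool came from the same mice, the mice within a pool cannot be told apart, and P42 is 1 pool.

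Cystatins are small proteins of which the classical members block cysteine proteases such as the lysosomal cathepsins. Cst3 (cystatin C) is secreted by most tissues, and Cst6 (cystatin E/M) blocks legumain as well as cathepsins. Cst8 (CRES), Cst11, Cst12 and Cst13 (cystatin T) belong to the CRES subgroup, which lacks sites that classical cystatins use to hold a protease and is known from the male reproductive tract. CRES was first described as a product of the proximal caput epididymis and is also known from testicular germ cells. Cstdc2 is a cystatin domain gene with no established function. Principal cells are the secretory cells that make up most of the duct lining.

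The set is largely 1 gene neighbourhood. In GRCm38, with the GENCODE vM21 annotation, 6 of the 7 genes lie on chromosome 2 between 148768609 and 148875692, a stretch of 107084 bases. From the low end these are Cst11 (148768609 to 148771497, minus strand), Cst12 (148789361 to 148793546, plus), Cst8 (148798785 to 148805595, plus), Cst13 (148820081 to 148830410, plus), Cstdc2 (148846711 to 148865038, minus, annotated as 9230104L09Rik) and Cst3 (148871722 to 148875692, minus). Cst6 lies alone on chromosome 19 (5344705 to 5349574, minus). None of these gene spans overlap, and the longest run of identical bases between transcripts of any of the 21 pairs of genes was 15 bases.

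Sequence upstream of the RefSeq start is shown for 3 chromosome 2 genes abundant in the caput and for their neighbour Cst3, which is present in all segments. Each runs 5′ to 3′ on the gene's strand, within the 250 bases upstream of the RefSeq start and without any exon base of the gene in GENCODE, and capitals mark a searched motif.
Cst8, chr2:148798589-148798784, plus strand: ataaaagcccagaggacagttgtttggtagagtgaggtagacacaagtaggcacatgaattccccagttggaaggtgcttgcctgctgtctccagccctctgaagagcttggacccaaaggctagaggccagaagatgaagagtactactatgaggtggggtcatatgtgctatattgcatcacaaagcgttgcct
Cst12, chr2:148789115-148789360, plus strand: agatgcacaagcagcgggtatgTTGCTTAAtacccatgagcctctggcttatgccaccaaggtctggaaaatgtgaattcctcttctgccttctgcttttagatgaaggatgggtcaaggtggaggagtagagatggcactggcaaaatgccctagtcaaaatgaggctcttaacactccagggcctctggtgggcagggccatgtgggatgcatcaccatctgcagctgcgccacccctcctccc
Cstdc2, chr2:148850935-148851184, minus strand: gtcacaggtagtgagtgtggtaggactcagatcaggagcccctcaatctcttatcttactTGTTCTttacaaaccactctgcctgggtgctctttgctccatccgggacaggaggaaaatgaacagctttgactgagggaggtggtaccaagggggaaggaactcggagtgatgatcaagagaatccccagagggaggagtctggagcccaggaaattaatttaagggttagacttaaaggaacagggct
Cst3, chr2:148875693-148875762, minus strand: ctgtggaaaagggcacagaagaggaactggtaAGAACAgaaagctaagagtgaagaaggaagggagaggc

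The promoter table, from RefSeq on GRCm38.p6, held 5 of the 7 genes. All 250 bases shown for Cstdc2 lie inside its longer GENCODE gene, and of Cst3 only 70 bases are shown because the rest lies inside its GENCODE gene. Over the 250 bases before the start, Cst3 had 59.6% G and C and 8 CG pairs, against medians of 52.4% and 6 over 32851 mouse promoters. Cst8 had 49.6% and 1 CG pair, Cst12 52.8% and 2, Cst13 44.8% and 0, and Cstdc2 49.6% and 2. The motifs were searched on both strands and do not contain one another. A GC box (GGGCGG), held by 32.7% of all promoters, was found in Cst3 only of the 5, in the bases not shown. A C/EBP motif (TTGCNNAA, 9.56% of promoters) was found in Cst12, the androgen receptor half-site (AGAACA, 16.1%) in Cstdc2 and 2 times in Cst3, of which 1 is shown, the TATA box (TATAAA, 12.4%) in Cst13, and the CCAAT box (33.8%) in none. A match says only that these letters occur in the window.

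The table held 44869 barcodes and 307987941 unique molecular identifiers (UMIs), each of which counts 1 captured transcript once whatever its length, so that levels of different genes can be set side by side. Libraries held 23114756 to 50655384 UMIs, and 42087 cells passed the limits on genes, UMIs and mitochondrial share. Clusters of cells were called principal-like, basal-like and so on from marker genes, with every cystatin gene left out of the clustering, and the short names are used below. After 617 erythroid cells were removed, 20284 cells were principal cells. Of 41926 barcode sequences, 116 occurred in 2 or more libraries, with a median of 5.5 in a pair. The pairs of P42 libraries shared most, with 27 for caput and cauda, 24 for corpus and cauda and 15 for caput and corpus. The part of shared barcodes in the levels of the P42 libraries was not tested. The P42 libraries of the corpus and cauda stood apart, with median depths of 3446 and 3088.5 UMIs a cell against 4446 to 7644 in the other libraries. Of their principal cells, 88.8% and 99.8% fell in 3 shallow clusters or the cycling cluster, against 3.27% to 12.4% in the other libraries. In the P42 caput library 4209 of 4981 barcodes passed the limits. Its UMIs went from 50655384 to 28936211 with the limits and without erythroid cells and globin genes. Those of the P56 caput libraries went from 33881990 to 31401813 and from 37040481 to 34934053. The part of the barcodes left out in the caput age differences was not tested. The p-values of segments measure the spread between 3 pools and those of age the spread between the 2 P56 pools, and levels are counts per 1000000 UMIs of the same cells (CPM).

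Cst8, Cst11, Cst12 and Cstdc2 were among the abundant transcripts of caput principal cells and stood at 48.0 CPM or less in principal cells of the corpus and cauda. Together the 7 genes made up 2.61% to 3.08% of the UMIs of principal cells in the 3 caput libraries. The same share was 0.0362% to 0.0540% in the corpus and 0.0486% to 0.0899% in the cauda, where most of it was Cst3.

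Cst8 stood at 8244 CPM in caput principal cells at P42, 8356 in P56 replicate 1 and 8578 in P56 replicate 2. In the corpus it stood at 19.6, 14.8 and 4.54, and in the cauda at 48.0, 6.62 and 6.49, in the same order of pools. Every caput library was thus far above every other library, and the caput values lay within a few percent of one another. With UMIs pooled over the pools, the caput level was 698 times that of the corpus and 727 times that of the cauda.

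Cst11, the gene at the other end of the neighbourhood from Cst3, had nearly the same profile, with 7943, 7755 and 7113 in the caput. It had 15.4, 7.999 and 2.54 in the corpus and 33.0, 2.82 and 3.83 in the cauda. Pooled, the caput was 995 times the corpus and 1090 times the cauda, with no overlap of libraries.

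Cstdc2 had 7361, 11046 and 11225 in the caput, where its P42 library was the lowest. It was the most abundant of the set in the P56 caput libraries, but at P42 it stood below Cst8 and Cst11. It had 18.1, 19.1 and 5.34 in the corpus and 38.3, 8.39 and 7.85 in the cauda. Cst12 was the least abundant of these 4 genes, at 1765, 2992 and 2928 in the caput, again lowest at P42. Its corpus values were 2.26, 3.55 and 1.27, and its cauda values 5.99, 1.31 and 1.79. The pooled caput level of Cstdc2 was 740 and 869 times those of the corpus and cauda, and that of Cst12 1097 and 1274 times.

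Cst13 and Cst6 were also highest in the caput but at far lower levels. Cst13 had 5.85, 8.09 and 7.77 CPM in caput principal cells and 0, 0.118 and 0.401 in the corpus. No Cst13 UMI was seen in 35783180 UMIs of cauda principal cells, so with a floor of 3 counts over the group the caput level was at least 88.6-fold higher. Cst6 had 4.35, 11.1 and 6.67 in the caput. Its corpus values were 0.566, 0 and 0, and its cauda values 0.692, 0.393 and 0.185. The corpus and cauda values of Cst6 rest on 5 and 12 UMIs in all.

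Cst3 departed from this pattern. It had 796, 625 and 630 CPM in caput principal cells, 484, 372 and 348 in the corpus and 773, 467 and 479 in the cauda. Within each pool the corpus was the lowest segment and the caput the highest, while the ranges of the caput and cauda over the pools overlapped.

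**Figure D1:**
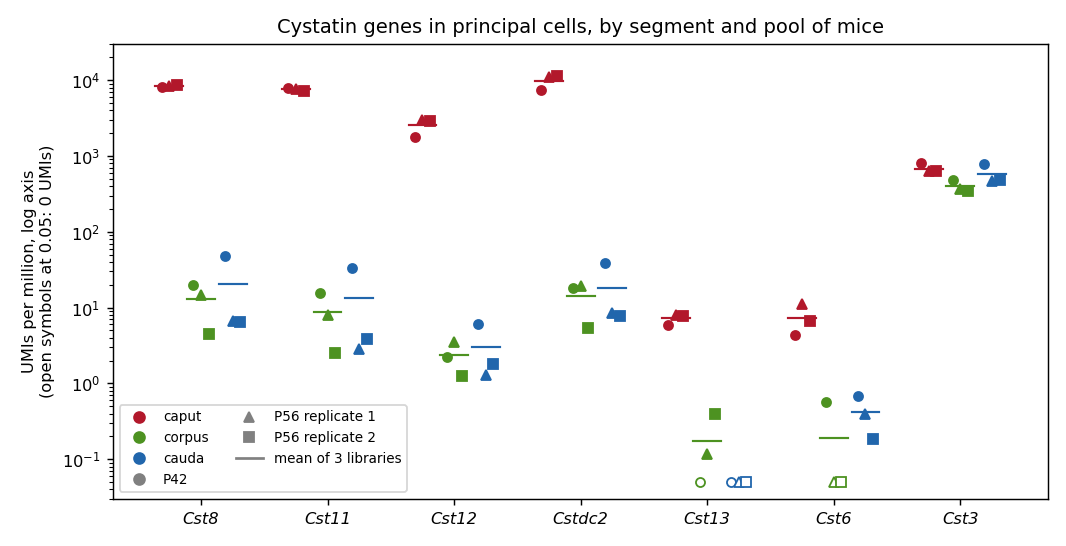
Level in CPM (log axis) of the 7 cystatin genes in principal cells, with 1 symbol per library, colours for segments, symbol shapes for pools, and lines at the mean of 3 libraries; open symbols at the foot stand for libraries with 0 UMIs. Cst8, Cst11, Cst12 and Cstdc2 sit between 1765 and 11225 in the caput and at or under 48.0 elsewhere, while Cst3 stays between 348 and 796 in all 9 libraries.

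The segments were compared over all genes with edgeR's quasi-likelihood F test with the pool as a block, and a gene was called at an adjusted p under 0.05 with at least 1 log2 unit between its highest and lowest segment. The test called 5048 of the 15429 genes fitted in principal cells (32.7%), and 13.9% of genes were called with their peak in the caput. Of the 7 cystatin genes Cst8, Cst11, Cst12 and Cstdc2 were called, all highest in the caput. Cst6 and Cst13, with 428 and 408 UMIs in the caput, passed the filter on low counts only through the caput, so their calls, which brought the number to 6, add nothing to the levels given above. The fitted log2 level of Cst8 in the caput was 9.54 ± 0.74 (SE, 9 libraries) above the corpus and 9.12 ± 0.74 above the cauda, with an edgeR adjusted p of 3.20e-05. For Cst11 these were 10.10 ± 0.81 and 9.79 ± 0.81 (edgeR adjusted p 3.48e-05), for Cst12 10.02 ± 0.63 and 9.77 ± 0.64 (1.45e-05), and for Cstdc2 9.58 ± 0.75 and 9.27 ± 0.74 (3.13e-05). None of these 4 genes passed the test between corpus and cauda, with edgeR adjusted p-values from 0.678 to 0.812, while 10.8% of all genes were called there. Cst3 had an edgeR adjusted p of 0.0179 but fell short of the fold threshold, with the caput 0.68 ± 0.16 above the corpus (pair 0.0122), the cauda 0.62 ± 0.16 above the corpus (pair 0.0380) and 0.06 ± 0.16 between caput and cauda (pair 0.804). Without P56 replicate 1 or without P56 replicate 2 the edgeR adjusted p of Cst3 was 0.304 and 0.195. The calls of Cst8, Cst11, Cst12 and Cstdc2 were made in every alternative fit, including the one without the shallow and cycling clusters. With the UMIs of all cells of a library summed, where less RNA per cell and fewer cells of a type cannot be told apart, the same genes were called, again with the caput highest (24.8% of 18469 genes called, 11.4% with the caput highest). Cst6 and Cst13 were called there too, but the call of Cst6 was lost without P56 replicate 1 (edgeR adjusted p 0.316) or P56 replicate 2 (0.222), and that of Cst13 without P56 replicate 1 (0.0680).

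In the caput, UMIs of these genes were not limited to principal cells. Cst8 averaged 7678 ± 1617 CPM in macrophages/monocytes, 7914 ± 1415 in halo/T cells, 6645 ± 2073 in myoid/fibroblast cells, 5040 ± 1819 in basal cells and 5065 ± 1829 in clear/narrow cells (SD, n = 3), against 8393 ± 170 in principal cells. The highest clear/narrow library, P56 replicate 1 at 7056, held 189 cells of cluster 34, which stood at 11362 and so at the level of caput principal clusters, while its clusters 3 and 7 stood at 3994 and 7550. Over the 24 sums of a caput library and another population, the level relative to principal cells of the same library ran from 0.377 to 1.03 for Cst8, from 0.345 to 1.08 for Cst11, from 0.262 to 1.04 for Cst12 and from 0.348 to 1.04 for Cstdc2.

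Principal cell markers moved with these levels. The summed level of 24 markers of principal cells stood at 0.345 to 0.927 of that in principal cells in the same 24 sums, with 21 to 24 of the markers present, so none of the list was confined to its cells. Divided by this marker ratio, the ratio of Cst8 had a median of 1.12 (0.955 to 1.29), that of Cst11 1.08 (0.931 to 1.23), that of Cstdc2 1.08 (0.938 to 1.31) and that of Cst12 1.02 (0.758 to 1.40). For Cst3 the same quotient was 1.70, with a range of 1.09 to 4.43. The marker sum was led by Gpx5, Lcn9 and Lcn8, at geometric means of 63160, 17740 and 16730 CPM in caput principal cells. These 3 are also among the genes most like Cst12 and Cstdc2 by r, so a quotient near 1 carries no test. Over the 22 markers with 10 CPM or more in principal cells, the median ratio ran from 0.321 to 0.905. How much of the cystatin UMIs outside principal cells came from free RNA was not tested.

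**Figure D2:**
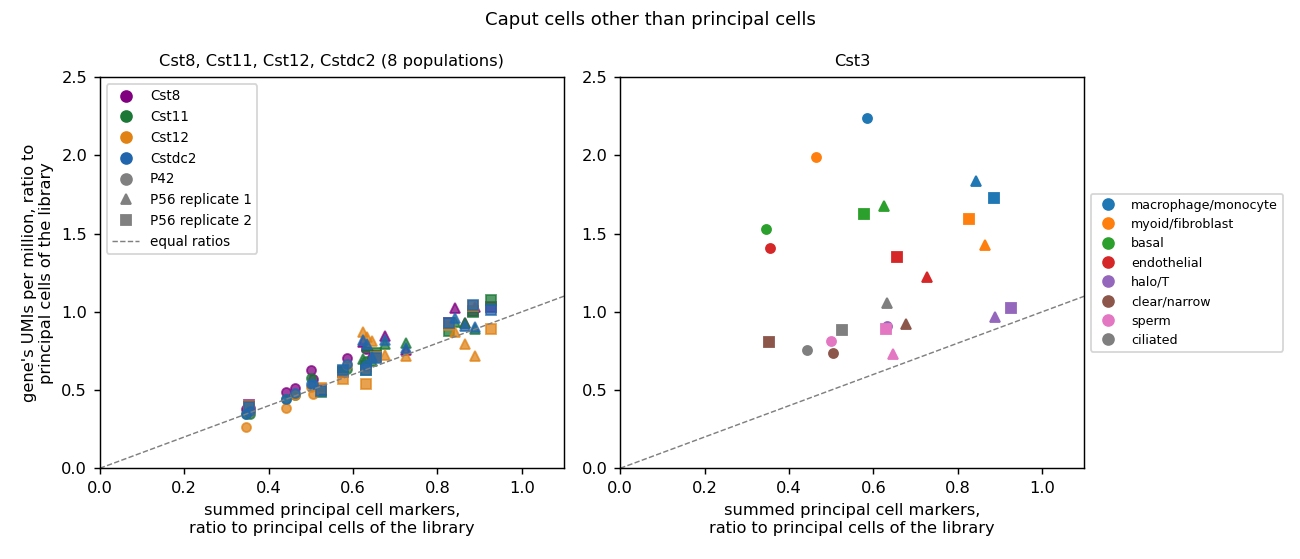
Level of cystatin genes in each of 8 other caput populations relative to principal cells of the same library, against the summed level of 24 principal cell markers on the same relative scale; each symbol is 1 library and population, and the dashed line marks equal ratios. Cst8, Cst11, Cst12 and Cstdc2 (left) scatter on both sides of the line, at 0.758 to 1.40 times the marker ratio, whereas every symbol of Cst3 (right) lies above it.

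The proportion of Cst11 to Cst8 varied little over the 9 caput populations of a library. At P42 the UMIs of Cst11 per UMI of Cst8 ran from 0.863 in halo/T cells to 0.964 in principal cells. In P56 replicate 1 they ran from 0.802 to 0.979 and in P56 replicate 2 from 0.783 to 0.866. Cst12 varied more, from 0.248 to 0.399 UMIs per UMI of Cst8 in P56 replicate 1. Under a gate that assigned cells 1 by 1, Cst8 averaged 10300 in principal cells, 2711 in basal cells and 2315 in clear/narrow cells of the caput, so the contrast between populations depended on how cells were assigned. Over all segments the gate placed 959 cells of basal clusters and 975 of clear/narrow clusters with principal cells. It left 1214 and 1879 cells of these clusters unnamed.

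The segment test was also run in 7 other populations, where several cystatin genes had few UMIs outside the caput and could be tested only because they were high there, so the counts that follow are a description. In basal cells 4 of the 5 cystatin genes tested were called, all with the caput highest, against 18.4% of all genes called and 7.32% called with the caput highest. In the same terms, clear/narrow cells had 5 of 7 (14.7% and 6.52%), myoid/fibroblast cells 4 of 5 (10.7% and 5.6%) and macrophages/monocytes 5 of 6 (12.6% and 6.17%). Endothelial cells had 4 of 5 (9.25% and 4.14%), halo/T cells 4 of 5 (17% and 7.94%) and sperm 5 of 6 (28.4% and 18.1%). Cst8, Cst11, Cst12 and Cstdc2 were called in all 7 populations and Cst13 in 3 of them, clear/narrow cells, macrophages/monocytes and sperm. In clear/narrow cells Cst13 had 64 UMIs in the caput and 0 elsewhere, and in macrophages/monocytes 46 in the caput and 1 elsewhere. The call of Cst13 was lost with DESeq2 in clear/narrow cells (adjusted p 0.343) and without P56 replicate 1 or 2 in macrophages/monocytes (edgeR adjusted p 0.0837 and 0.0507). In macrophages/monocytes the caput was 8.55 ± 0.52 log2 units above the corpus for Cst8 and 9.06 ± 0.52 above the cauda (edgeR adjusted p 7.76e-06). In the caput sums of this population the summed principal cell markers stood at 0.586 to 0.885 of their level in principal cells. The part of principal cell RNA in the calls of these 7 populations was not tested. Cst3 was called in none of these populations, with edgeR adjusted p-values from 0.0971 to 0.996.

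Outside the caput, the few Cst8 UMIs were spread over cell types. In the corpus the Cst8 level of principal cells was 0.793, 0.672 and 0.408 times that of the other named cells at P42, P56 replicate 1 and P56 replicate 2. In the cauda it was 2.44, 1.02 and 0.982 times. In the P42 cauda library, the shallowest, principal cells thus had more Cst8 than the other cells, while in the remaining 5 libraries they had at most 1.02 times as much.

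Sperm-like cells of the corpus had 88.3, 37.2 and 38.7 CPM of Cst8 at P42, P56 replicate 1 and P56 replicate 2, from 58, 29 and 45 UMIs. The principal cells of the same libraries had 19.6, 14.8 and 4.54. Cst11 UMIs per Cst8 UMI were 0.155, 0.448 and 0.133 in these sperm, against 0.786, 0.542 and 0.559 in corpus principal cells and 0.783 to 0.979 in the caput populations. Low proportions were also found in other corpus populations, at 0.391 in clear/narrow cells of P56 replicate 2 and 0.486 in macrophages/monocytes of P56 replicate 1, from 23 and 35 Cst8 UMIs. At P42 the Cst8 UMIs lay in 30 of 186 cells and in P56 replicate 1 in 19 of 197. In P56 replicate 2 they lay in 16 of 207 cells, and 30 of the 45 UMIs were in 3 cells. Counts this small describe these libraries only.

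Among caput principal cells the 4 abundant genes varied together between clusters. The highest levels were in cluster 9, led by Jaml, Tecta and Adam28 and mostly from P56 replicate 1, and in cluster 8, led by Rnase10 and Tecta and found in P56 replicate 2. In cluster 9 of P56 replicate 1, Cst8 stood at 13091, Cst11 at 10729, Cst12 at 5271 and Cstdc2 at 17345 CPM. Cluster 10, led by AY761185, Defb15 and Pate13, had Cst8 at 8978, Cst12 at 1970 and Cstdc2 at 8160 over its 1239 caput cells. It had 0.909 UMIs of Cstdc2 per UMI of Cst8, against 1.31 and 1.32 in clusters 8 and 9. Cluster 8 and most of cluster 9 came from different pools, so in such levels cluster and pool cannot be told apart. Cluster 17, led by Spag11a, Rnase9, Rnase13 and Lcn5, was the lowest, with Cst8 at 1575, 1580 and 1586 in the 3 pools and Cst11 at 1291, 1289 and 1289. Cluster 12, with Spag11a, Rnase13 and Lcn5, lay between, with Cst8 at 4455, 3067 and 3059. Cluster 17 thus stood below the macrophages/monocytes of the caput, which had 5810 to 8636 CPM of Cst8. The caput cluster of cycling cells, led by Hmmr and Cenpf, kept Cst8 at 7232.5, 9478 and 10436.

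Cluster 16 had proportions of its own. It was led by Lypd8, Pate6, Teddm1b, Spink13 and Lcn12, and it had more Cst11 than Cst8, with 1.42, 1.40 and 1.58 UMIs of Cst11 per UMI of Cst8 at P42, P56 replicate 1 and P56 replicate 2. In the other caput principal clusters with 30 or more cells in a library, that proportion ran from 0.736 to 0.976. Its Cst11 level in P56 replicate 1 was 8101, while Cst12 stood at 1110. Among caput principal clusters it also had the highest Cst6 level at P56, at 33.4 CPM in P56 replicate 1 (172 UMIs in 115 of 750 cells) and 26.9 in P56 replicate 2 (42 UMIs in 34 of 215 cells). At P42 it held 2 Cst6 UMIs in 62 cells, or 4.66 CPM. Of the other caput principal clusters with 30 or more cells in a library, cluster 1 in P56 replicate 1 had 12.5 CPM, from 5 UMIs, and the rest at most 7.32. These clusters were made without the cystatin genes, but their cells are not replicates, so the differences between them carry no test.

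**Figure D3:**
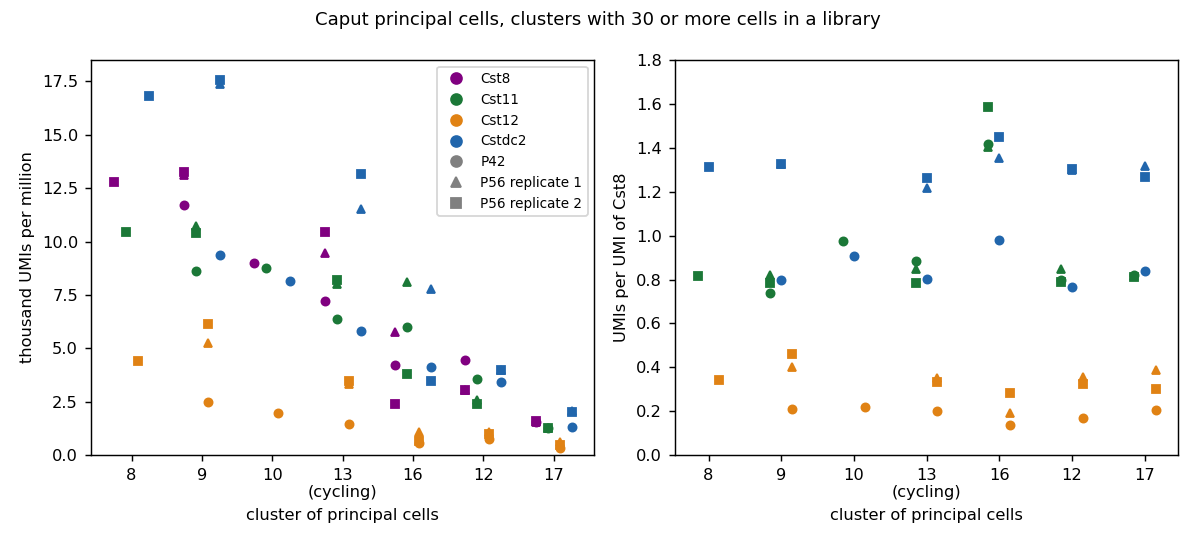
Level of 4 cystatin genes (left, in units of 1000 CPM) and UMIs of Cst11, Cstdc2 and Cst12 per UMI of Cst8 (right) in clusters of caput principal cells, with 1 symbol per library and shapes for pools. Levels are highest in clusters 8 and 9 and lowest in cluster 17, and of the clusters plotted only cluster 16 has more Cst11 than Cst8 (1.40 to 1.58).

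Per cell, the same grouping was seen. After each caput principal cell was thinned to 1000 UMIs, 88.2% of cells had a UMI of Cst8 (84.2% to 90.5% over libraries), 89.9% of Cst11, 90.3% of Cstdc2, 61.5% of Cst12 and 48.1% of Cst3. Without thinning these shares were 99.27%, 99.26%, 99.50%, 88.76% and 94.88%, at a median of 6430 UMIs a cell. Macrophages/monocytes of the caput, which are not known for Cst8, gave 91.0% after thinning at a median of 5883 UMIs a cell, so a Cst8 UMI did not mark a principal cell in these libraries. The median cell had 8 Cst8 UMIs per 1000 in each pool, and the 25th and 75th percentiles were 2 and 13, 2 and 13, and 1 and 14. Across cells of a library, the thinned counts of Cst8 and Cstdc2 had a Pearson r of 0.786 (1660 cells), 0.808 (3116 cells) and 0.874 (2843 cells) at P42 and in the P56 replicates, and those of Cst8 and Cst11 0.678, 0.713 and 0.825. Cst12 was less close, with an r of 0.542, 0.546 and 0.619 with Cst8 and 0.377, 0.427 and 0.540 with Cst11. The r of Cst3 with these 4 genes lay between 0.0234 and 0.0676. Median thinned counts were 1, 0 and 0 for Cst3 and 1, 2 and 1 for Cst12, and low counts limit r. The cells of a library share its depth and free RNA, and these values are descriptions.

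Cst13, a gene best known from testicular germ cells, was highest outside the duct lining in the caput at P56. Cluster 31, led by the germ cell genes Cox8c, Ldhc and Cetn1 and placed with sperm, had 111 Cst13 CPM in the caput of P56 replicate 1 (25 UMIs in 6 of 33 cells) and 146 in P56 replicate 2 (141 UMIs in 24 of 133 cells). Caput principal cells of these libraries had 8.09 and 7.77. In the P42 caput the 18 sperm-like cells had 0 Cst13 UMIs, against 5.85 CPM in principal cells. In the P42 corpus cluster 31 had 0 UMIs in 16 cells, while all sperm-like cells had 3 UMIs and principal cells 0. In the corpus of P56 replicate 2 the cluster had 14 UMIs, all in 1 cell. The share of caput principal cells with a Cst13 UMI after thinning, 0.586%, was under the 0.989% of macrophages/monocytes. With a Cst6 UMI it was 0.699%, against 0.520% of macrophages/monocytes and 0.940% of myoid/fibroblast cells, so neither share set principal cells apart from all other populations. In level, caput principal cells had 1.61 to 1.62 times the Cst6 of the other named cells of their library, with ciliated cells left out. Ciliated cells had 0.968 to 1.55 times the Cst6 level of principal cells, from 11 UMIs.

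Cst3 was present in every population, and macrophages/monocytes had the highest mean. Over the 9 libraries it averaged 1359 ± 643 CPM in macrophages/monocytes, 911 ± 336 in myoid/fibroblast cells, 875 ± 240 in basal cells and 826 ± 225 in endothelial cells (SD). It averaged 553 ± 163 in principal cells, 526 ± 135 in halo/T cells and 497 ± 78.6 in clear/narrow cells over 9 libraries, 528 ± 145 in sperm over 8 and 606 ± 52.0 in ciliated cells over the 3 caput libraries. In descending order of these means, with ciliated cells after endothelial cells, neighbours differed by less than the larger of their SDs. Among the populations seen in all segments, endothelial and principal cells differed by more than either SD.

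Set against principal cells of the same library, macrophages/monocytes had 1.55 to 4.63 times as much Cst3, in 9 of 9 libraries. Basal cells had 1.42 to 1.87 times as much, myoid/fibroblast cells 1.268 to 2.4 times and endothelial cells 1.06 to 2.05 times, also in 9 of 9. Clear/narrow cells had 0.640 to 1.19 times as much and halo/T cells 0.850 to 1.12 times.

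Macrophages/monocytes were not uniform. The P42 libraries had 1781, 2241 and 2478 CPM of Cst3 in caput, corpus and cauda, above all P56 libraries, which had 741 to 1147. These CPM, and those of clusters below, were not scaled for composition or tested between ages. In principal cells Cst3 CPM was also highest at P42 in each segment, but with TMM it differed by -0.04, 0.09 and 0.09 log2 units. Summed principal cell markers stood at 3235 CPM in cauda macrophages/monocytes at P42 and at 26620 and 32360 at P56. Their part in the Cst3 difference was not tested. The makeup differed with age as well, since in the cauda cluster 5 held 119 cells at P42 against 544 of cluster 18 and 251 of cluster 23, and at P56 it held 166 and 401 cells against 47 and 43 of cluster 18. Within cluster 5 of the cauda Cst3 stood at 1691 at P42 and 836 and 716 at P56. Cluster 23, led by Ear2, Ccr2 and the class II genes H2-Ab1 and H2-Eb1, had 3199 at P42 and 1642 and 1369 at P56 in the corpus. Cluster 18, led by Fcna, Cd163 and Mrc1, had 1828, 1409 and 934 there, and cluster 5, led by Ccl4, Ccl3 and Il1b, 1403, 582 and 659. In the corpus the order 23, 18, 5 was the same in all 3 pools, and in the cauda at P42 it was the same, with 3287, 2248 and 1691.

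**Figure D4:**
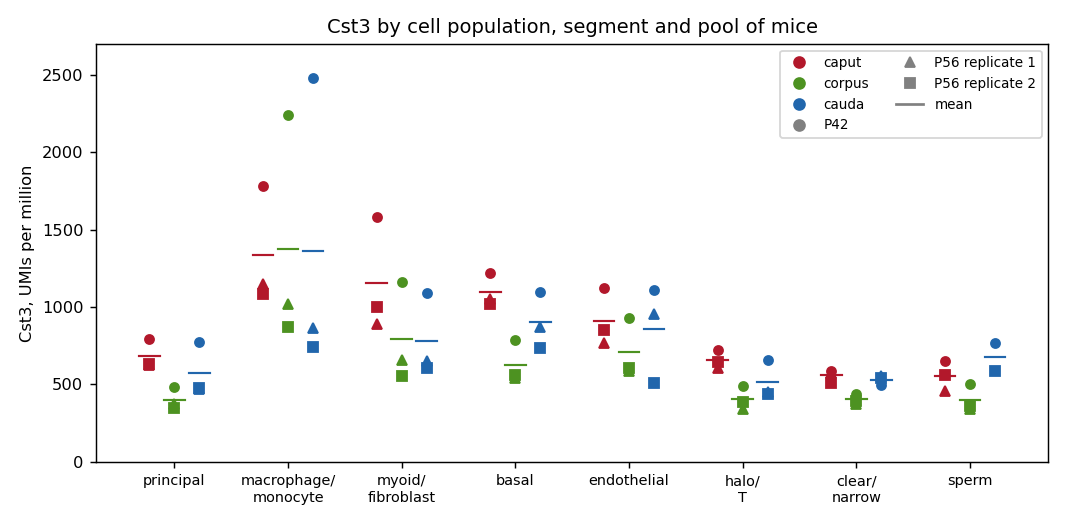
Cst3 level (CPM) by population (x axis), with 1 symbol per library, colours for segments, shapes for pools and lines at segment means. Macrophages/monocytes reach 2478 in the P42 cauda library, and principal and clear/narrow cells stay under 800 in every library.

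The ages were compared within each segment by edgeR's quasi-likelihood test, in which the single P42 library of a segment is assumed to vary as the P56 libraries do. In caput principal cells 108 of 17812 genes (0.606%) were called at an adjusted p under 0.05 and a log2 difference of at least 1, and no cystatin gene was. Cst12 was 1.05 ± 0.34 log2 units higher at P56 (edgeR p 0.0138, adjusted 0.225), Cstdc2 0.90 ± 0.51 higher (p 0.110, adjusted 0.455) and Cst6 1.35 ± 0.45 higher (p 0.0163, adjusted 0.235). DESeq2 also called none of the 7 genes. Cst8 and Cst11 differed by 0.34 ± 0.45 and 0.21 ± 0.42, and Cst3 by -0.04 ± 0.17; without composition scaling (TMM) the sign of Cst11 turned, at -0.10.

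Proportions within a library, which do not depend on scaling between libraries, differed in the same direction for Cst12 and Cstdc2. Cstdc2 UMIs per Cst8 UMI were 0.893 in caput principal cells at P42 and 1.32 and 1.31 in the P56 replicates. Cst12 UMIs per Cst8 UMI were 0.214 at P42 and 0.358 and 0.341 at P56. Over all 9 caput populations the P42 proportion of Cstdc2 ran from 0.767 to 0.893 and the P56 proportions from 1.16 to 1.36, without overlap. For Cst12 they ran from 0.149 to 0.214 and from 0.248 to 0.399. The populations of a library can share free RNA and are not separate observations. In each of clusters 9, 12, 13, 16 and 17, which had 30 or more cells in all 3 pools, both proportions were lower at P42. In the cycling cells of cluster 13 the proportion of Cstdc2 was 0.803 at P42 and 1.22 and 1.26 at P56. The levels did not follow in every cluster, since Cstdc2 in cluster 16 stood at 4143.5 CPM at P42 and at 7798 and 3481 at P56. With 1 pool at P42, age and pool cannot be told apart.

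**Figure D5:**
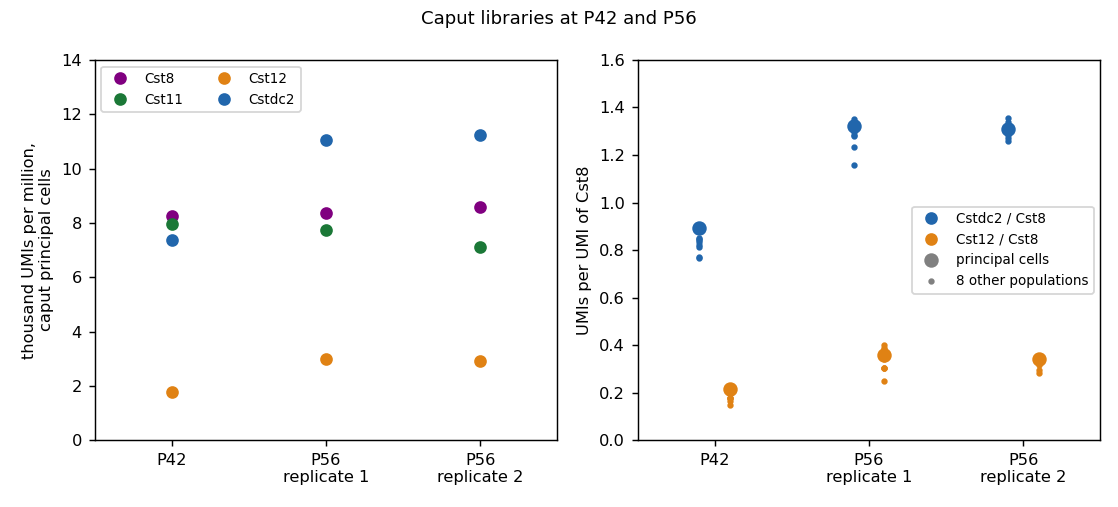
Level of 4 cystatin genes in caput principal cells of the 3 pools (left, in units of 1000 CPM) and UMIs of Cstdc2 and Cst12 per UMI of Cst8 in each caput population (right; large symbols are principal cells, small symbols the 8 other populations). The P42 proportions, at most 0.893 and 0.214, lie under all P56 proportions.

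In cauda principal cells 21.5% of genes were called between the ages, 13.4% lower at P56. Without TMM the median of all genes moved by -0.77 log2 units and the calls went from 1434 higher and 2389 lower to 213 higher and 5146 lower. Cst11 fell by 2.51 ± 0.48 log2 units from P42 to P56 (edgeR adjusted p 0.00429) and Cst8 by 2.07 ± 0.48 (0.0105), from levels of 33.0 and 48.0 CPM at P42. Cstdc2 differed by -1.44 ± 0.53 (adjusted 0.0671) and Cst12 by -1.15 ± 0.53 (0.132). Of the P42 cells, 1702 of the 1706 cauda principal cells were in the shallow or cycling clusters, so the comparison could not be made without those clusters. With a P56 cauda library left out, 1 library of each age remained there and the spread came from the other segments. The adjusted p of Cst8 was then 0.0513 without P56 replicate 1 and 0.0649 without P56 replicate 2, and that of Cst11 0.0353 and 0.0265 (edgeR). In the corpus 3.72% of genes and no cystatin gene were called, with edgeR adjusted p-values from 0.150 to 0.961. Only Cst6, with 5 UMIs at P42 and 0 at P56, had an unadjusted p under 0.05 there. Without TMM the calls of the corpus went from 185 higher and 478 lower to 60 and 1657, and those of the caput from 51 and 57 to 33 and 177. The test of whether the age difference differed between segments called 10.5% of genes in principal cells and no cystatin gene. The lowest edgeR adjusted p-values were 0.0647 for Cst11 and 0.0983 for Cst8. With the pool as a replicate block, a fit chosen after seeing the data that leaves 2 residual degrees of freedom, 15.8% of genes and the 5 cystatin genes Cst11, Cst6, Cst8, Cstdc2 and Cst12 were called (edgeR adjusted p 0.0130, 0.0178, 0.0181, 0.0294 and 0.0414), so these calls depended on the block. In that fit the P56 minus P42 difference of Cst11 in the cauda less that in the caput was -2.70 log2 units, and that of Cst8 was -2.42. With all cells of a library summed, the share of genes called between ages was 3.55% for the caput, 10.7% for the corpus and 32.2% for the cauda (19.4% lower at P56). There no cystatin gene was called in the caput, where the lowest edgeR adjusted p was 0.0913, that of Cst6. Cst6 was called in the corpus, 3.47 ± 0.64 lower at P56 (edgeR adjusted p 0.0115, and 0.0540 without P56 replicate 2), and Cst8 in the cauda, 1.25 ± 0.38 lower (0.0294, and 0.110 or 0.117 without P56 replicate 1 or 2). The age difference differed between segments for 14.3% of genes and for Cst6 alone of the 7. With the pool as a block it did so for 23.5% of genes and for Cst6, Cst8 and Cst11 (edgeR adjusted p 0.000833, 0.0124 and 0.0348).

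The wider cystatin superfamily and the proteases that cystatins block were described from 2 lists. Of 24 other superfamily genes 18 were in the table and 5 were tested in principal cells, of which 3 were called between segments, all highest in the caput, where 32.7% of all genes were called and 13.9% with the caput highest. The 3 passed the filter on low counts only through their caput UMIs. These were Csta1, a relative of the intracellular stefins, at 4.72 ± 0.67 CPM in the caput (SD, n = 3), Cstdc1 at 2.97 and Cst9 (testatin), which lies between Cst13 and Cstdc2, at 1.38. None of the 3 had a UMI in corpus or cauda principal cells, and with a floor of 3 counts over the group Csta1 was at least 65.4-fold higher in the caput than in the corpus. With DESeq2 the adjusted p of Csta1 was 0.110 and that of Cstdc1 0.123, and without P56 replicate 1 that of Cst9 was 0.0758 with edgeR. Cstb (cystatin B, an intracellular inhibitor) was at 376 ± 38.1, 236 ± 20.7 and 245 ± 18.6 in caput, corpus and cauda (edgeR adjusted p 0.0985), and the fetuin gene Fetub at 10.3, 4.72 and 6.75 (0.0619). Fetub was called in 4 alternative fits of principal cells. In clear/narrow cells Fetub was called with the cauda highest, at 10.4, 5.08 and 23.2 (edgeR adjusted p 0.000383, with 14.7% of all genes called). In the age fit of principal cells 7 of these genes were tested, and none was called in the caput or corpus. In the cauda, where 21.5% of all genes were called, Fetub was 1.29 ± 0.36 log2 units higher at P56 (edgeR adjusted p 0.0237). Cst7 (cystatin F, known from immune cells) was called lower there (0.00564), from 11 UMIs that were all in the P42 library. With all cells summed, 11 of these genes were tested and none was called in the caput. Fetub was called higher and Cst7 lower at P56 in the corpus and cauda, where 10.7% and 32.2% of all genes were called. In the cauda Cstb was also called higher and Cstl1 lower. Alternatives of the age fits were run for the 7 cystatin genes only.

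All 11 proteases were tested in principal cells and 5 were called (32.7% of all genes), 1 with its peak in the caput (13.9% of all genes) and 4 with their peak in the corpus or cauda. The median log2 difference of the 11, caput minus corpus, was 0.00, against 0.01 over all genes, and caput minus cauda it was -0.29, against 0.00649. Ctsl (cathepsin L) was at 762 ± 133, 355 ± 57.0 and 471 ± 106 CPM in caput, corpus and cauda (caput minus corpus 1.01 ± 0.18, edgeR adjusted p 0.00840). Ctsh (cathepsin H) was at 125 ± 26.3, 212 ± 4.49 and 75.3 ± 37.8 (0.00283), highest in the corpus. Ctsc (cathepsin C) was at 32.0, 57.5 and 58.6 (0.0259), lower in the caput and with corpus and cauda not told apart (edgeR adjusted p 0.970). Ctso was at 9.99, 20.03 and 22.5 (0.00181), and Ctsk (cathepsin K) at 1.77, 3.46 and 22.2 (0.0311), where 61.8 CPM in the P42 library set the cauda mean. Ctss in the cauda was at 114 CPM at P42 against 5.57 and 13.2 at P56. Not called were Ctsb at 143, 121 and 154, Lgmn (legumain) at 46.2, 68.7 and 61.0, Ctss at 39.7, 16.8 and 44.2, Ctsf at 13.1, 12.3 and 19.9, Ctsz at 6.97, 6.19 and 14.2, and Ctsw. Of these, Ctsf and Lgmn had an edgeR adjusted p of 0.00753 and 0.0140 but fell short of the fold threshold. Several protease calls depended on the setting: that of Ctsc was lost in 9 of 12 alternative fits, that of Ctsl in 7, that of Ctsk in 5, and those of Ctsh and Ctso without P56 replicate 1 (edgeR adjusted p 0.0723 and 0.0511). Calls were gained by Ctss in 4 alternative fits, by Ctsw in 2 and by Ctsf in 1. Between the ages, Ctsk, Ctss, Ctsw and Ctsz were called in cauda principal cells, all lower at P56, in a segment where 21.5% of all genes were called and 13.4% were lower at P56, and none of the 11 in the corpus or in the caput, where 3.72% and 0.606% were. With all cells summed, 1 was called in the caput (Ctsk), 4 in the corpus (Ctsk, Ctss, Ctsw and Ctsz) and 8 in the cauda (these 4 with Ctsb, Ctsc, Ctsh and Lgmn), all lower at P56, where 3.55%, 10.7% and 32.2% of all genes were called. Ctss is a gene of macrophages as well, and the part of other cells' RNA in these calls was not tested.

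The genes whose levels were most like each cystatin gene were found by Pearson's r of log2(CPM + 1) over 74 sums of a library and a population, which share libraries and free RNA. For Cst8 these were Lcn8, Teddm1a and Cst11 (r 0.990, 0.989 and 0.989), for Cst11 Lcn8, Spag11b and Teddm1a (0.993, 0.993 and 0.991), for Cstdc2 Lcn8, Lcn9 and Teddm1a (0.992, 0.990 and 0.988) and for Cst12 Lcn9, Defb48 and Spag11b (0.987, 0.985 and 0.982). These are transcripts known from caput principal cells, among them lipocalin and beta-defensin genes. Cst3 was most like Marcks, Tent5a and Ctsb (0.782, 0.779 and 0.777). Cst6 was most like Il34, Gm36543 and Tstd1 (0.729, 0.717 and 0.709), and Cst13 like 1700036G14Rik, Henmt1 and Gm16555 (0.848, 0.817 and 0.809). The order depended on the sums used. Over the 27 sums of the caput alone Cst3 was most like Tlr4, Grn and Axl (0.827, 0.816 and 0.791), and Actg2 led for Cst8 (0.985), Rnase10 for Cst11 (0.984) and Cstdc2 for Cst12 (0.983), while Lcn8 led for Cstdc2 in both.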

How the data were processed

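Cells of whole segments of wild-type epididymides were captured on the Singleron GEXSCOPE system, with no sort. Per the labels, the submitters' processing notes name STAR 2.7.3a, UMI-tools and the mouse genome GRCm38. The authors deposited raw UMI counts per gene and cell of all 9 libraries, with no normalization, and all values here come from those counts. Cells with 300 to 4000 genes, at most 20000 UMIs and under 50% mitochondrial UMIs were kept. Leiden clusters (leidenalg 0.10.2, 3000 variable genes, 50 components, resolution 1) were named from marker lists. Before clustering, the mean of a library was subtracted from each gene. No doublet caller was run. Listed cystatin and protease genes were left out of the clustering. Counts were summed per library and population (10 or more cells, globins left out) and tested over all genes with edgeR 4.0.16 (R 4.3.3, TMM, filterByExpr, quasi-likelihood) with Benjamini-Hochberg adjustment. Segment fits had the pool as a block. The study's methods describe the 3 segments of a pool as cut from the same mice. Deviations of same-pool libraries from the segment means correlated at 0.0190 to 0.630 (median 0.358, 9 pairs). Those of libraries of different pools and segments correlated at -0.579 to 0.451 (median -0.165, 18 pairs), which subtraction of a segment mean lowers by itself. Age fits had no block, and the test of age between segments was also run with the pool as a block. Alternatives were DESeq2 1.42.0, other scaling, no filter, no block, each pool left out, no mitochondrial genes, other cell assignments and all barcodes. The model scripts were tested on simulated data. Counting intervals and floors cover counting error only.

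The 7 genes were named in every comparison. Other cystatin and protease genes were named if called or at 10 CPM or more (counts per 1000000 UMIs) in a segment mean of principal cells, and the 3 genes most like each cystatin gene by r. The members and lists were chosen with earlier results of these data known. The alternatives leaving out the shallow and cycling clusters (in the segment and in the age fits) and cluster 34, and that block, were chosen after seeing the data.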

Additional observations from a re-analysis of the deposited data

Results flagged for a closer look

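With the UMIs of all cells of a library summed, the age difference of Cst6 differed between the segments by the test of that difference (edgeR adjusted p 0.0136, from a table in which 14.3% of genes passed, and 0.000833 with the pool as a replicate block, where 23.5% passed). Cst6 was 3.47 ± 0.64 log2 units lower at P56 in the corpus (edgeR adjusted p 0.0115), against 1.52 ± 0.45 higher in the caput (0.0913) and 0.74 ± 0.59 higher in the cauda (0.341). The corpus P42 library had 2.07 CPM and the P56 libraries 0.119 and 0.115. Of its Cst6 UMIs, 23 were in 4 of 57 cells of clear/narrow cluster 7, 11 of them in 1 cell. Without P56 replicate 2 the corpus adjusted p was 0.0540, and in principal cells alone the adjusted p of the difference between segments was 0.110.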

How the results depend on the processing

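Over 206 results, 1506 alternative values were computed, of which 1327 were rated the same. For the fold change of a gene this meant the same direction and side of the threshold. For a number of genes called it meant a value within a set factor of the main number. In each segment fit of principal cells, 6 cystatin genes were called under every alternative, Cst6 and Cst13 only through their caput UMIs. Without the replicate block of the pool, 4580 genes and 6 cystatin genes were called in principal cells and 3340 and 6 with all cells summed, and in the other populations the numbers of cystatin genes called were the same as with the block. With the replicate block of the pool, the age difference differed between segments for 5 cystatin genes in principal cells (0 without it) and 3 with all cells summed (1). Of all genes, 15.8% (10.5% without it) and 23.5% (14.3%) were called there. No paired analysis was possible for age within a segment because each pool has 1 age, and with a P56 library left out the spread came from the other segments.

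Leaving out 1 library or pool at a time moved the number of genes called between segments from 5048 to between 2280 and 6446 in principal cells and from 4577 to between 612 and 7453 with all cells summed, lowest without P56 replicate 1. The genes called between ages ranged from 69 to 175 in caput principal cells (108 with all libraries), from 307 to 561 in the corpus (663), and, with all cells summed, from 831 to 1315 in the caput (755) and 1106 to 1610 in the corpus (2266). The number of cystatin genes called between ages also moved, but such fits keep 1 library of each age in a segment. Log2 age differences that turned sign in corpus principal cells ranged from -0.27 to 1.12 for Cst12, -1.54 to 0.0589 for Cst8 and -1.20 to 0.54 for Cstdc2. In caput principal cells Cst3 ranged from -0.13 to 0.0444, and in the cauda Cst6 from -1.12 to 0.0425. With all cells summed, the corpus ranges were -0.61 to 1.05 for Cstdc2, -0.92 to 0.22 for Cst8 and -1.71 to 0.0036 for Cst11. Segment differences that turned were Cst6, caput minus cauda, in clear/narrow cells (-0.30 to 1.78), Cst3, cauda minus caput, in macrophages/monocytes (-0.23 to 0.15) and Cst3, cauda minus corpus, in endothelial cells (-0.0349 to 0.54). None of these passed the test with all libraries.

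Without TMM, the median of all genes between ages moved by -0.29, -0.49 and -0.77 in caput, corpus and cauda principal cells, and segment medians by 0.11 (caput minus corpus) and 0.24 (caput minus cauda). The genes called between ages were then 210 in the caput and 1717 in the corpus in principal cells, and 1572 and 3920 with all cells summed. The cystatin genes called were 2 in the corpus and 4 in the cauda in principal cells. In the cauda 213 genes were then called higher and 5146 lower at P56, of 17812. With all cells summed 3 cystatin genes were called in the cauda, where 928 genes were higher and 7492 lower, of 21275. Age differences that turned were Cst11 in the caput (-0.10) and Cst3 in the corpus (-0.43) and cauda (-0.71) in principal cells, and Cstdc2 in the corpus (-0.18) and Cst6 in the cauda (-0.0123) with all cells summed. The cauda minus caput difference of Cst3 in macrophages/monocytes was -0.17.

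Without the filter on low counts, 596 and 1418 of 30613 genes were called between ages in caput and corpus principal cells. In cauda principal cells 1753 genes were called higher and 2633 lower at P56. With all cells summed, 1876 of 32186 genes were called in the caput, and in the cauda 2890 higher and 4300 lower. Cystatin calls were then 2 in the caput, 1 in the corpus, 4 in the cauda and 5 for the difference between segments in principal cells, and 4 in the caput and 2 in the cauda with all cells summed. DESeq2 called 170 genes between ages in caput principal cells, and the interaction was not run with it. Without the shallow and cycling clusters, 1007 genes were called in the corpus, Cst3 differed by -0.0143 there, Cst12 by 8.11 (edgeR adjusted p 0.203, against 0.62 and 0.533 with all clusters) with no Cst12 UMI in the P42 clusters that were left, and Ctsb and Ctsz were -0.0223 and -0.30, cauda minus corpus. Unthinned, the shares of caput principal cells with a UMI were 94.88% for Cst3, 4.125% for Cst6, 99.27% for Cst8, 99.26% for Cst11, 88.76% for Cst12, 4.951% for Cst13 and 99.50% for Cstdc2. The cause of these changes was not tested. The 5 and 12 UMIs of Cst6 outside the caput and the single P42 library of a segment limit the age comparisons.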
